A study of Mus musculus with 8 samples.

Results

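The spliceosomal snRNP core proteins are the proteins held by the small nuclear ribonucleoprotein particles (snRNPs) of the major spliceosome, together with the U2AF heterodimer that brings the U2 particle to the 3′ splice site. They were chosen by gene name, and all 45 names on the list were found among the 78317 genes of the deposited expression table. The list holds 7 proteins of the Sm ring, 3 of the U1 snRNP, 11 of the U2 snRNP, both U2AF subunits, 7 of the LSm ring, 5 of the U4/U6 snRNP, 7 of the U5 snRNP and 3 of the U4/U6.U5 tri-snRNP. Each snRNP is built around a small nuclear RNA: the Sm proteins form a ring of 7 on the U1, U2, U4 and U5 RNAs, and the LSm proteins form a like ring on U6. U1 marks the 5′ splice site, U2 pairs with the branch point, and the tri-snRNP then joins and is rearranged into the catalytic spliceosome. In humans, loss of function of EFTUD2 and of TXNL4A causes craniofacial syndromes that can include hearing loss.

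RNA was measured in the basilar membrane of the mouse cochlea, on which the sensory hair cells and the supporting cells sit, at postnatal day 6. The libraries were made with a stranded mRNA kit from 1 µg of total RNA each. By their titles they form 4 hete and 4 homo libraries of a strain made to study Dnajc17 and hearing, where the Dnajc17 product is a J-domain co-chaperone that carries an RNA recognition motif and is linked to the spliceosome. The genotype tag reads WT for hete and Dnajc17 cKO for homo, so it is unclear from the labels whether the control mice carry a mutant allele, and the groups keep their title names here. What drives the deletion, and which stretch of the gene is deleted, is not given in the sources used here. Nor do the labels say that the 4 libraries of a group came from separate animals, so p-values here rest on a spread between libraries that could be technical.

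Values are in TPM, a relative number of transcripts scaled by transcript length and by the total of the library, and the depth of a library is unknown because TPM does not keep it. Differences are given as the log2 fold change (log2FC) of homo over hete, computed on log2(TPM + 1), with its standard error (SE). They come from limma-trend, fitted across the 17811 genes whose mean reached 1 TPM. That fit called 2 genes at an adjusted p under 0.05, which is 0.0112% of those tested, 1 higher and 1 lower in homo (0.00561% each). For Dnajc17 itself the log2FC was 0.07 ± 0.15 SE (limma-trend adjusted p = 0.969), with 22.06 to 26.51 TPM in hete and 18.04 to 31.08 in homo, so the targeted gene's level did not separate the groups. The labelled tissue was checked against cell type markers. All 12 hair cell markers had a mean of at least 1 TPM, and their summed level ran from 415.6 to 584.5 TPM in hete and from 306.4 to 404.8 in homo. All 12 supporting cell markers did so too, with sums of 5586 to 6265 TPM in hete and 6537 to 7001 in homo, so that neither of these sums overlapped between the groups. The largest single part of each sum came from 1 gene, Ocm with 31.7% of the hair cell sum and Tectb with 69.3% of the supporting cell sum. Without them both sums overlapped, at 256.0 to 314.8 TPM in hete and 248.8 to 312.1 in homo for hair cells and at 1739 to 1906 and 1870 to 2176 for supporting cells. Gene by gene, 9 of 12 hair cell markers had a log2FC below 0 and 10 of 12 supporting cell markers above 0. Of these lists 1 and 4 markers did not overlap between the groups, where 3.99% of all tested genes did not. At an unadjusted limma-trend p under 0.05 there were 3 hair cell markers, all lower in homo, and 4 supporting cell markers, all higher. Of all tested genes 6.05% had such a p. The sums of the 11 neuron, 8 glia and 8 mesenchyme markers overlapped, as did those of the 10 proliferation markers, with 157 to 182.2 TPM for hete and 177.2 to 205.5 for homo. All 11 neuron markers nonetheless stood above 0, with a median log2FC of 0.16 and 3 at an unadjusted p under 0.05, as did all 10 proliferation markers, with a median of 0.13 and 2 at such a p. Of the glia and of the mesenchyme markers 6 of 8 stood above 0, with 1 and 0 at such a p. No marker of any list was called. Blood markers, of which 7 of 8 had a mean of at least 1 TPM, summed to between 1786 and 3718 TPM. Of these 7, 5 stood below 0 and 2 above, with a log2FC of up to 1.77. Those 2 had an unadjusted limma-trend p under 0.05, and 1 of the 7 did not overlap between the groups. No marker of any list was at 0 in all libraries. In the authors' deposited table of alternative splicing, 3953 events were counted by junction reads or by junction and exon reads, 2062 of them skipped exons, with no value per library.

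None of the 45 snRNP protein transcripts passed the test for a change between homo and hete. All 45 passed the filter on low values, 0 were called, and their adjusted p ran from 0.694 to 1.000 (limma-trend, Benjamini-Hochberg over all tested genes). At an unadjusted p under 0.05 there were 2 members, Snrnp200 and Sf3b1, both higher in homo, where 6.05% of all tested genes passed in either direction and 3.56% passed as higher. The 4 hete and the 4 homo values did not overlap for 1 member, Snrnp200, where 3.99% of all tested genes did not overlap and 2.58% did so as higher. Both counts are near the share of the background. In a sample of whole tissue, fewer cells of a type and less RNA per cell cannot be told apart, so each value is an average over the cells that were dissected. The part of the hair cell, supporting cell, neuron, glia, blood and proliferation marker levels in these values was not tested.

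The intervals were narrow, but each is for 1 gene alone and rests on a spread between libraries that could be technical. The log2 fold changes of the members ran from -0.22 for Lsm6 to 0.20 for Lsm4, and the 95% intervals of all 45 lay within a 1.5-fold difference in either direction, the widest bounds being 0.698-fold and 1.48-fold. For 43 members the interval held 0. The median log2 fold change was 0.04 over the members and 0.02 over all tested genes, and 26 members stood above 0 and 19 below, where 56.3% of all tested genes stood above 0. That split became 23 to 22 after quantile normalization, 20 to 25 without hete replicate 4, and 32 to 13 without either hete replicate 1 or homo replicate 1. Regardless of direction, the median size of the log2 fold change was 0.07 for the members and 0.09 for all tested genes.

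**Figure D1:**
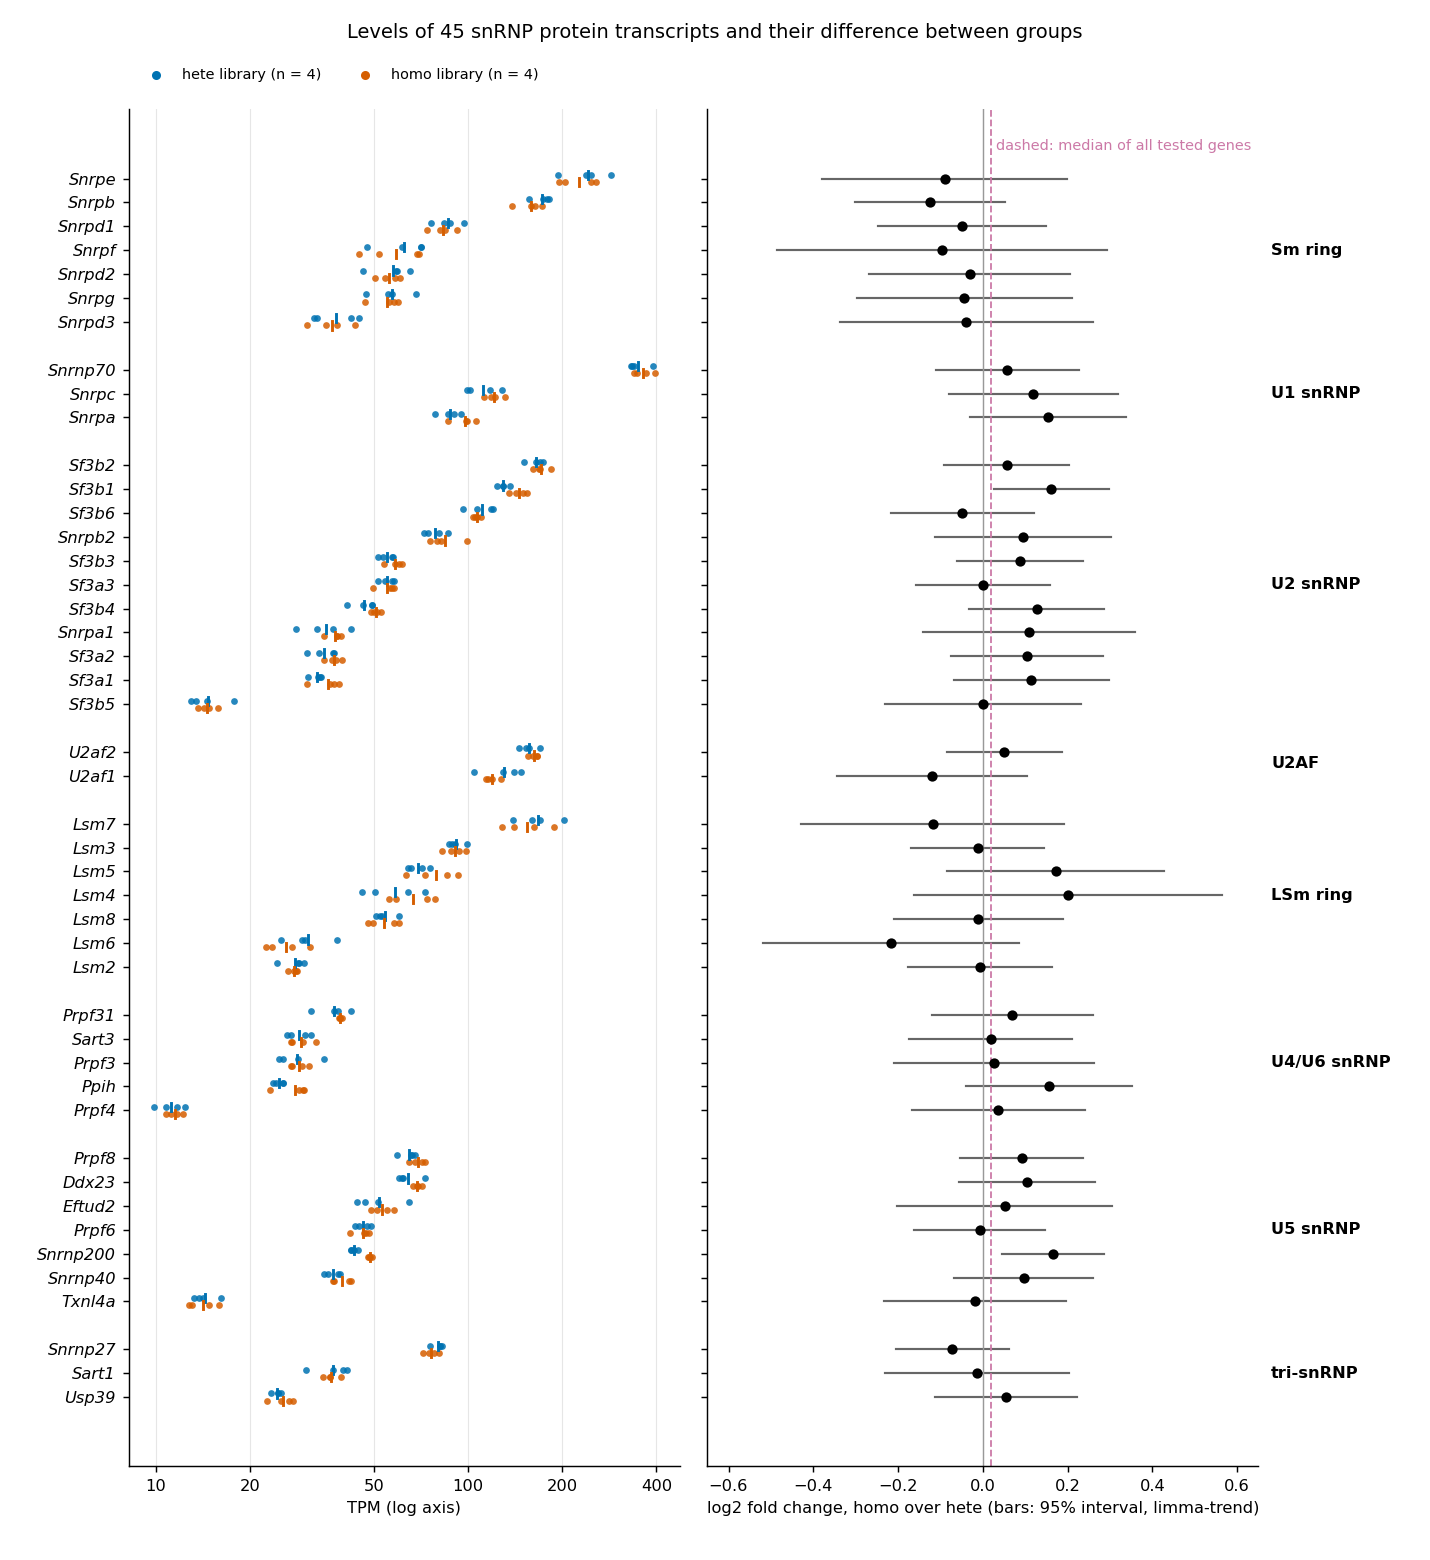
TPM of the 45 snRNP protein transcripts in each library on a log axis (left; points are libraries, 4 hete and 4 homo, and ticks are group means) and the log2 fold change of homo over hete with its 95% limma-trend interval (right), grouped by particle and ordered by level. Levels ran from 11.4 TPM for Prpf4 to 356.2 for Snrnp70, the groups overlapped for every transcript but Snrnp200, and 43 of 45 intervals held 0.

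Levels differed far more between members than between groups. The mean over the 8 libraries ran from 11.4 TPM for Prpf4 to 356.2 TPM for Snrnp70, a 31.3-fold range, and 32 of the 45 members lay above the 75th percentile of tested genes, with a median at the 84.0th percentile. Members with the highest means came from 4 particles: Snrnp70 of U1 at 356.2 TPM was followed by Snrpe of the Sm ring at 233.8, Sf3b2 of U2 at 167.8, Snrpb of the Sm ring at 165.5, and Lsm7 of the LSm ring at 161.3. The places of Snrpg and Lsm7 in this order are uncertain because of pseudogene copies described with them. Their TPM sums with the copies stand above Snrpe. Such a sum gives reads on a short copy more weight than reads on the longer gene, so it does not settle the order. In the order of levels, 7 of the 44 neighbouring pairs lay further apart than the sum of their SDs over the 8 libraries, and the other 37 did not differ beyond that spread. The gap above Sf3b5, Txnl4a and Prpf4, which had 14.7, 14.3 and 11.4 TPM, was the widest by this measure. These 3 belong to U2, U5 and U4/U6, so the lowest levels as listed were also spread over particles. That of Txnl4a, the U5 member, is uncertain because it shares sequence with Gm16286. The median residual SD on the log2(TPM + 1) scale was 0.12 for the members and 0.16 for all tested genes. By particle it was 0.18 for the Sm ring and 0.19 for the LSm ring. In the other particles it ran from 0.09 for the tri-snRNP to 0.12 for U1. The members also had a higher median level, 55.9 TPM against 14.1, and spreads were not compared at equal level.

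The Sm ring proteins form the shared core of the U1, U2, U4 and U5 snRNPs. All 7 Sm transcripts had a log2 fold change below 0, from -0.12 for Snrpb to -0.03 for Snrpd2, with a median of -0.05, under each scaling that was tried. This direction rested on single libraries: 4 of the 7 stood above 0 without hete replicate 1, 4 without homo replicate 1, and 1 without hete replicate 3, without homo replicate 3 or with pseudogene copies summed into the genes. None of the 7 was called (adjusted p 0.870 to 0.980, limma-trend), and the groups overlapped for each.

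Snrpe (ENSMUSG00000090553, chromosome 1), which encodes the SmE protein, was the highest of the ring by the values as listed, though the level of Snrpg is uncertain. In replicate order, as in all lists of 4 values here, the hete libraries gave 287.29, 247.18, 237.68 and 193.5 TPM and the homo libraries 195.92, 257.31, 203.69 and 247.73. The highest value belonged to a hete library and the lowest to another hete library, so the homo values lay inside the hete range (log2FC -0.09 ± 0.13 SE, adjusted p = 0.949). Snrpb (ENSMUSG00000027404, chromosome 2), which encodes SmB, had the smallest p of the ring. Its values were 181.3, 178.58, 173.61 and 156.61 TPM in hete and 138.08, 163.97, 159.42 and 172.08 in homo. Hete replicates 1 to 3 lay above all 4 homo libraries and hete replicate 4 among them (log2FC -0.12 ± 0.08 SE, adjusted p = 0.870). Snrpf, which encodes SmF, had 62.5 ± 10.9 TPM in hete against 58.7 ± 12.4 in homo (± SD of 4 libraries, log2FC -0.10 ± 0.17 SE). Its SDs are larger than the difference of the means. Snrpd3, which encodes SmD3 and had the lowest level of the ring, stood at 37.9 ± 6.42 and 36.8 ± 5.31 TPM (log2FC -0.04 ± 0.13 SE). Although the proteins join the ring in equal number, the ratio of Snrpe to Snrpd3 transcripts lay between 4.52 and 7.71 in the 8 libraries. Snrpd1, Snrpd2 and Snrpg had means over the 8 libraries of 84.4, 56.6 and 55.9 TPM.

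The value of Snrpg (ENSMUSG00000057278, chromosome 6), which encodes SmG, has a limit, because its transcript holds a stretch that cannot be told apart from a copy elsewhere in the genome. The processed pseudogene Gm8186 matched an Snrpg transcript at 100% identity over its whole length of 231 nt. Its sequence is shown because it lies entirely within the Snrpg transcript and holds a complete reading frame, whose start and stop codons are in capitals. It lies at chr17:26098991-26099221 on the minus strand of GRCm38 in the GENCODE M21 annotation.
Gm8186: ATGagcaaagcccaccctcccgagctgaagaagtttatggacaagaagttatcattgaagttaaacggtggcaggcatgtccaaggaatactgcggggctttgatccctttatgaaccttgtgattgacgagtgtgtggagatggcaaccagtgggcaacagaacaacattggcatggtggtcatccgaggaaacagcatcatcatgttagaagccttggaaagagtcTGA
The table lists Gm8186 at 274.3 ± 35.2 TPM in hete and 233.4 ± 50.7 in homo (mean ± SD of 4 libraries), and Snrpg at 56.9 ± 8.49 and 54.97 ± 5.69. Per length, the copies of Snrpg were listed at 454% of the level of Snrpg itself. The longest coding Snrpg transcript has 1055 nt, so an equal number of reads gives a higher TPM on the shorter copy. With Gm8186 and the other copy summed into the gene, the level was 331.2 ± 33.3 TPM in hete and 288.4 ± 51.1 in homo, and the log2 fold change moved from -0.04 (SE 0.11) to -0.21 (SE 0.13, adjusted p = 0.870). Summed this way, Snrpg stood above Snrpe, which had 241.4 TPM in hete and 226.2 in homo. Neither value of Snrpg was called, and the summed values overlapped between the groups. Snrpf has a pseudogene copy too, Gm13092 at 4.8 TPM, and its log2 fold change turned from -0.10 to 0.07 when the copy was added.

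**Figure D2:**
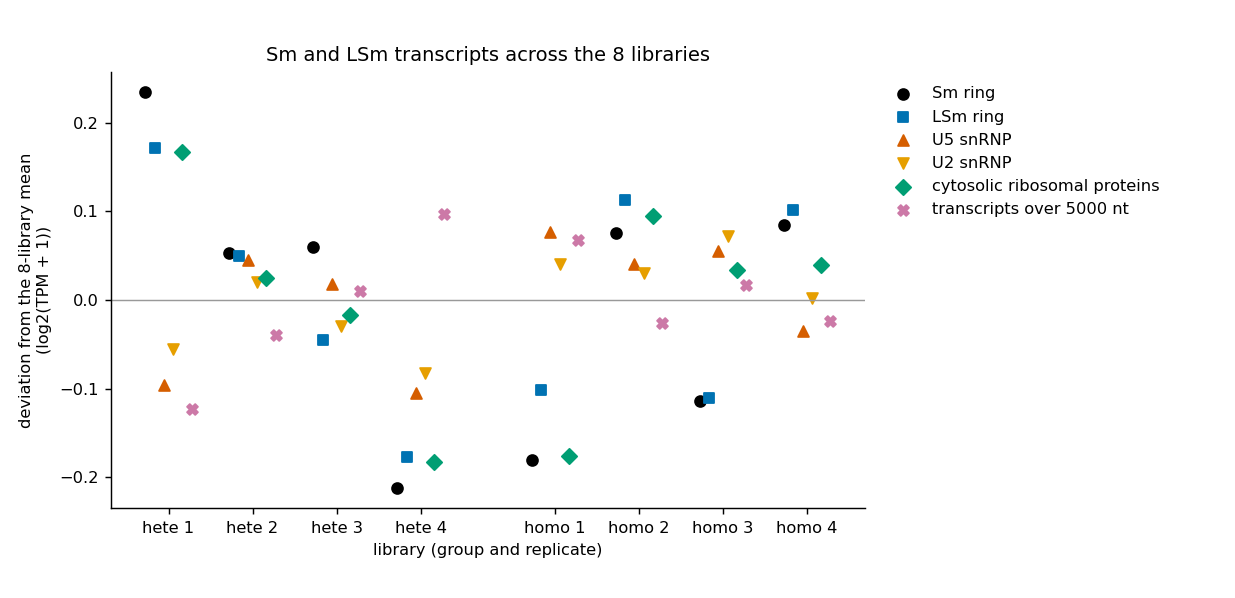
Deviation of the Sm, LSm, U5 and U2 transcripts from their 8-library mean in each library, in log2(TPM + 1), beside 74 cytosolic ribosomal protein genes and 3084 tested transcripts over 5000 nt. Points are the mean over genes for the particles and the median over genes for the ribosomal protein genes and long transcripts. The Sm and LSm rings and the ribosomal protein genes were high in hete replicate 1 and low in hete replicate 4 and homo replicate 1, and long transcripts were low in hete replicate 1 and high in the other two.

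The Sm and LSm transcripts varied together between libraries of the same group. All 7 Sm transcripts were highest in hete replicate 1, as were 10 of the 14 Sm and LSm transcripts together, where 7.22% of all tested genes were highest there. Of the 14, 8 were lowest in homo replicate 1 and 4 in hete replicate 4, where 8.37% and 13.8% of all tested genes were lowest. The mean deviation of the Sm ring from its 8-library mean was 0.24, 0.05, 0.06 and -0.21 on the log2 scale in the hete libraries and -0.18, 0.08, -0.11 and 0.08 in the homo libraries. The distance between its highest and lowest library was 1.36-fold, both of them hete. This distance was 1.27-fold for the LSm ring, 1.25-fold for U2AF, 1.24-fold for U1 and 1.196-fold for U4/U6. It was 1.16-fold for the tri-snRNP, 1.14-fold for U5 and 1.11-fold for U2. In hete replicate 4 the LSm ring deviated by -0.18, U2AF by -0.18, U1 by -0.17 and U4/U6 by -0.15. There U5 deviated by -0.11, U2 by -0.08 and the tri-snRNP by 0.02. In hete replicates 1 and 4 and homo replicate 1, ribosomal protein genes and short transcripts varied with the Sm ring, and long transcripts the opposite way. By the median over genes, the 74 cytosolic ribosomal protein genes deviated by 0.17 in hete replicate 1, -0.18 in hete replicate 4 and -0.18 in homo replicate 1. The 1762 tested transcripts under 1000 nt deviated by a median of 0.07, -0.03 and -0.08 in the same libraries, and the 3084 over 5000 nt by -0.12, 0.10 and 0.07. The match did not hold in every library. In hete replicate 3 the ribosomal protein genes stood at -0.02 and the Sm ring at 0.06. In homo replicate 3 they stood at 0.03 and -0.11. The part of the ribosomal protein, short and long transcripts in the values of the Sm and LSm rings was not tested.

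The 3 proteins of the U1 snRNP recognise the 5′ splice site with U1 RNA. Their transcripts all had a log2 fold change above 0, in every setting tried, with a median of 0.12, and none was called. Snrpa (ENSMUSG00000061479, chromosome 7), which encodes the A protein of the particle, bound to a stem loop of U1 RNA, had 86.37, 89.98, 95.11 and 78.32 TPM in hete and 98.14, 106.2, 99.54 and 85.95 in homo. In 3 of 4 homo libraries it lay above all hete libraries, and in homo replicate 4 below 3 of them (log2FC 0.15 ± 0.08 SE, adjusted p = 0.870). Snrpc, which encodes the C protein, the nearest to the 5′ splice site, had 111.7 ± 13.7 TPM in hete against 120.9 ± 7.71 in homo (± SD of 4 libraries, log2FC 0.12 ± 0.09 SE, adjusted p = 0.884). Snrnp70 (ENSMUSG00000063511, chromosome 7), which encodes U1-70K, the protein that binds the other major stem loop, was the highest of the 45. It had 331.47, 335.56, 390.32 and 339.22 TPM in hete and 340.19, 395.32, 371.07 and 346.2 in homo, so that each group held a library near 390 to 395 (log2FC 0.06 ± 0.08 SE, adjusted p = 0.940). The ratio of Snrnp70 to Snrpa lay between 3.47 and 4.33 in all 8 libraries and overlapped between the groups.

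The U2 snRNP holds its A′ and B″ proteins on the RNA, encoded by Snrpa1 and Snrpb2, and the SF3A and SF3B complexes, which clamp the branch point. Of its 11 transcripts, 9 had a log2 fold change above 0 and 2 below, with a median of 0.09. The number above 0 was 8 after quantile normalization, after rescaling to protein-coding nuclear genes and after removal of a length trend, and 8 to 10 with a library left out. The summed level of the 11 was 742.2, 764.6, 762.4 and 757.4 TPM in hete and 801.5, 783.1, 821.0 and 778.0 in homo. These sums did not overlap, whereas the mean of the log2 values over the same genes did (5.77 to 5.88 for hete, 5.86 to 5.93 for homo). The sum is carried by the highest genes, and no test was made of it.

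Sf3b1 (ENSMUSG00000025982, chromosome 1), which encodes the scaffold of SF3B that holds the branch point adenosine, had 129.41, 123.69, 136.6 and 129.18 TPM in hete and 142.42, 135.24, 149.38 and 154.05 in homo. The lowest homo library lay under the highest hete library, and the other 3 lay above all of hete. The log2FC was 0.16 ± 0.06 SE, with a limma-trend p-value of 0.0240 before and 0.760 after adjustment over all genes, so it was not called. The unadjusted value was above 0.05 after removal of the length trend (0.0625) and in the fits that left out hete replicate 2 (0.0705), homo replicate 3 (0.0636) and homo replicate 4 (0.0662). Sf3b4, which encodes an RNA-binding subunit of SF3B, had 46.4 ± 3.87 TPM in hete against 50.6 ± 1.48 in homo (± SD of 4 libraries, log2FC 0.13 ± 0.07 SE, adjusted p = 0.870). In 3 of 4 homo libraries it lay above all of hete. Sf3a1, the largest subunit of SF3A, had 32.8 ± 1.37 and 35.7 ± 3.55 TPM (log2FC 0.11 ± 0.08 SE, adjusted p = 0.875). Sf3b2, which binds close to the branch point and had the highest level of the particle, stood at 164.5 ± 9.76 and 171.0 ± 9.89 TPM (log2FC 0.06 ± 0.07 SE). At the other end Sf3b5, a small subunit, had 14.7 ± 2.16 and 14.6 ± 0.91 TPM, with a log2 fold change of 0.00 (SE 0.10) that turned below 0 with the same 3 scalings. The ratio of Sf3b2 to Sf3b5 lay between 9.24 and 13.5 in the 8 libraries. The other U2 transcripts were Sf3b6 at 108.4 TPM over the 8 libraries, Snrpb2 at 81.2, Sf3b3 at 56.7, Sf3a3 at 55.1, Snrpa1 at 36.2 and Sf3a2 at 35.8, with log2 fold changes from -0.05 for Sf3b6 to 0.11 for Snrpa1. Part of the Sf3a2 transcript, 429 nt, is identical to Plekhj1, so reads there may belong to either gene.

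U2AF binds the polypyrimidine tract and the AG of the 3′ splice site. U2af2 (ENSMUSG00000030435, chromosome 7), the large subunit that binds the tract, had 153.61, 156.96, 169.67 and 145.89 TPM in hete and 161.41, 165.76, 165.51 and 155.06 in homo. All homo values lay inside the hete range (log2FC 0.05 ± 0.06 SE, adjusted p = 0.934). U2af1 (ENSMUSG00000061613, chromosome 17), the small subunit that reads the AG, had 147.9, 129.7, 140.19 and 104.57 TPM in hete and 113.9, 127.45, 116.09 and 119.35 in homo. Here too the homo values lay inside the hete range (log2FC -0.12 ± 0.10 SE, adjusted p = 0.903). The ratio of U2af2 to U2af1, whose proteins form a heterodimer, was 1.21 ± 0.146 in hete and 1.36 ± 0.0703 in homo, and the groups overlapped.

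The LSm ring binds the 3′ end of U6 RNA, and with Lsm1 in place of Lsm8 a related ring acts in mRNA decay. Of its 7 transcripts, 2 had a log2 fold change above 0 and 5 below, with a median of -0.01, but 5 stood above 0 after removal of the length trend or without hete replicate 1. The ring held both the lowest and the highest log2 fold change of the 45 members, in Lsm6 and Lsm4, before copies are considered. With pseudogene copies summed in, Lsm6 moved from -0.22 to -0.09 and Snrpg at -0.21 was the lowest. With a library left out, Lsm6 ran from -0.30 to -0.11, the latter without hete replicate 1, and Lsm4 from 0.10 without hete replicate 4 to 0.31 without hete replicate 2. Lsm4 had 64.38, 72.53, 50.29 and 45.78 TPM in hete and 58.81, 73.87, 55.93 and 78.07 in homo (log2FC 0.20 ± 0.16 SE, adjusted p = 0.894). Lsm6 had 38.13, 29.4, 30.0 and 25.19 TPM in hete and 31.14, 27.37, 22.54 and 23.67 in homo (log2FC -0.22 ± 0.13 SE, adjusted p = 0.870). Each gene ranged over libraries of a group by as much as the groups differed, and neither was called. Lsm5 stood at 69.2 ± 5.07 and 78.7 ± 13.3 TPM (± SD of 4 libraries, log2FC 0.17 ± 0.11 SE, adjusted p = 0.874), with the homo SD larger than the difference. Lsm2, the lowest of the ring, had 27.9 ± 2.39 and 27.7 ± 0.855 TPM (log2FC -0.01 ± 0.08 SE). Lsm3 and Lsm8 had 91.1 and 53.9 TPM over the 8 libraries, each with a log2 fold change of -0.01. Lsm8 is the subunit that sets the U6 ring apart.

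Lsm7 (ENSMUSG00000035215, chromosome 10), the highest of the LSm ring, has an identical copy as Snrpg does. The processed pseudogene Gm10146 matched an Lsm7 transcript at 100% identity over its whole length of 309 nt, at chr10:78393320-78393628 on the plus strand of GRCm38. Like Gm8186 it begins with a start codon and lies entirely within the transcript of its gene, but no stop codon ends it. Lsm7 had 202.93, 160.27, 169.3 and 139.08 TPM in hete and 128.51, 162.55, 140.09 and 187.87 in homo, and Gm10146 had 174.0 ± 18.3 and 183.4 ± 52.2 TPM (mean ± SD of 4 libraries). The gene and its copy were thus listed at similar levels, the copies at 111% of the gene. The log2 fold change of Lsm7 was -0.12 (SE 0.14) alone and -0.03 (SE 0.13) with the copies added (adjusted p = 0.93 and 0.987). In all, 14 of the 45 members had at least 1 pseudogene copy with at least 95% identity over at least 200 nt, 5 of them in the Sm ring, 3 in the LSm ring and 6 elsewhere. Of the 29 copies, Gm8186 and Gm10146 were the ones listed above 5 TPM.

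**Figure D3:**
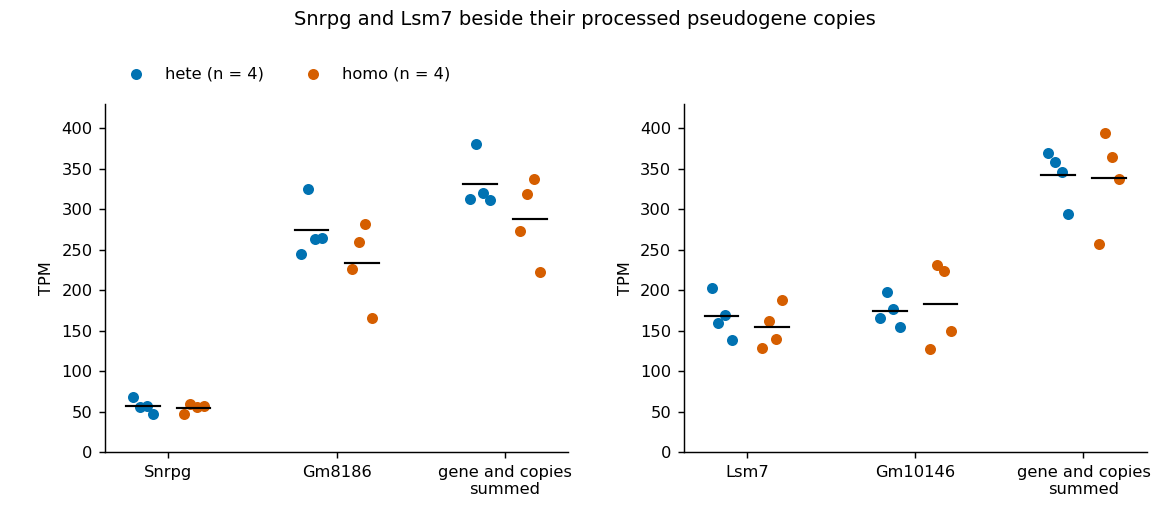
TPM of Snrpg and Lsm7, of their identical processed pseudogene copies Gm8186 and Gm10146, and of each gene with its copies summed, in each of 4 hete and 4 homo libraries, with lines at the group means. Gm8186 lay above Snrpg in all 8 libraries, Gm10146 lay near Lsm7, and the groups overlapped in each column.

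The U4/U6 snRNP keeps U6 RNA paired with U4 until activation. All 5 of its transcripts had a log2 fold change above 0, with a median of 0.04, but 3 did so after quantile normalization or removal of the length trend, and 1 without hete replicate 4. Ppih (ENSMUSG00000060288, chromosome 4), a cyclophilin bound to the particle, had 24.31, 25.6, 23.78 and 25.49 TPM in hete and 23.25, 29.53, 28.77 and 29.88 in homo. In 3 homo libraries it lay above all of hete and in homo replicate 1 below all of it (log2FC 0.16 ± 0.09 SE, adjusted p = 0.870). Ppih also has near-identical copies among 7 other annotated genes, of which Gm7879 had the highest level at 8.13 TPM, so its reads are uncertain. Prpf31, which binds the U4 RNA kink turn region and is mutated in human retinitis pigmentosa, had 37.22, 38.45, 42.14 and 31.51 TPM in hete and 39.06, 38.93, 38.49 and 39.62 in homo. The homo values lay within the hete range and had an SD of 0.466 against 4.41 (log2FC 0.07 ± 0.09 SE, adjusted p = 0.935). Prpf4, the partner of Prpf3 and the lowest of the 45, had 11.2 ± 1.11 and 11.5 ± 0.632 TPM (± SD of 4 libraries, log2FC 0.04 ± 0.09 SE). Sart3, which helps U4 and U6 to pair again after a round of splicing, and Prpf3 had 29.0 and 28.5 TPM over the 8 libraries, with log2 fold changes of 0.02 and 0.03.

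The U5 snRNP carries the largest proteins of the spliceosome, among them Prpf8 at its catalytic centre and the helicase Snrnp200. Of its 7 transcripts, 5 had a log2 fold change above 0 and 2 below, with a median of 0.09, and 4 to 7 stood above 0 over the settings tried. Snrnp200 (ENSMUSG00000003660, chromosome 2), the Brr2 helicase that unwinds U4 from U6, was the member with the smallest p. It had 42.14, 42.22, 44.55 and 43.2 TPM in hete and 47.67, 49.38, 48.39 and 48.04 in homo. Every homo library stood above every hete library, at means of 43.0 ± 1.12 and 48.4 ± 0.735 TPM (mean ± SD of 4 libraries), 1.12-fold apart. The log2FC was 0.17 ± 0.05 SE, with a limma-trend p-value of 0.0124 before and 0.694 after adjustment over all genes, so it was not called. With each library left out in turn it lay between 0.16 and 0.18, and it was 0.13 after quantile normalization and 0.14 after removal of the length trend. Its spread was unusually small, since 0.0786% of tested genes had a smaller residual SD. Snrnp200 lies on chromosome 2, as does Dnajc17, with 95 tested genes between them. Among the 1279 tested genes of that chromosome, 4.53% were higher in homo without overlap and 8.52% had an unadjusted p under 0.05. The part of the chromosome in this value was not tested. The other members on chromosome 2 were Snrpb, Snrpb2 and Prpf6, with 128, 193 and 585 tested genes between each and Dnajc17, and their groups overlapped.

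Prpf8 (ENSMUSG00000020850, chromosome 11), which contacts both splice sites, had 59.37, 65.86, 67.5 and 66.23 TPM in hete and 70.97, 67.78, 72.78 and 64.63 in homo. Homo replicate 4 lay below 3 of the hete libraries and the other 3 above all of hete (log2FC 0.09 ± 0.07 SE, adjusted p = 0.874). The ratio of Prpf8 to Snrnp200, 2 proteins bound to each other, lay between 1.35 and 1.56 in the 8 libraries and overlapped between the groups. Ddx23, the helicase that displaces U1 from the 5′ splice site, had 61.62, 62.05, 72.96 and 59.88 TPM in hete and 66.41, 68.4, 69.1 and 71.36 in homo (log2FC 0.10 ± 0.07 SE, adjusted p = 0.874). Its groups overlapped through hete replicate 3 alone, which held the highest value of all 8. Txnl4a, a small thioredoxin-like protein and the lowest of the particle, had 14.3 ± 1.26 and 14.2 ± 1.497 TPM (± SD of 4 libraries, log2FC -0.02 ± 0.10 SE). A stretch of 357 nt of Txnl4a is identical to the annotated gene Gm16286, listed at 76.4 TPM over the 8 libraries, so the level of Txnl4a is uncertain. Eftud2, the GTPase of the particle, had 52.5 TPM over the 8 libraries, Prpf6, a bridge to U4/U6, had 46.05, and Snrnp40, a WD-repeat protein, had 38.2. Their log2 fold changes were 0.05, -0.01 and 0.10.

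**Figure D4:**
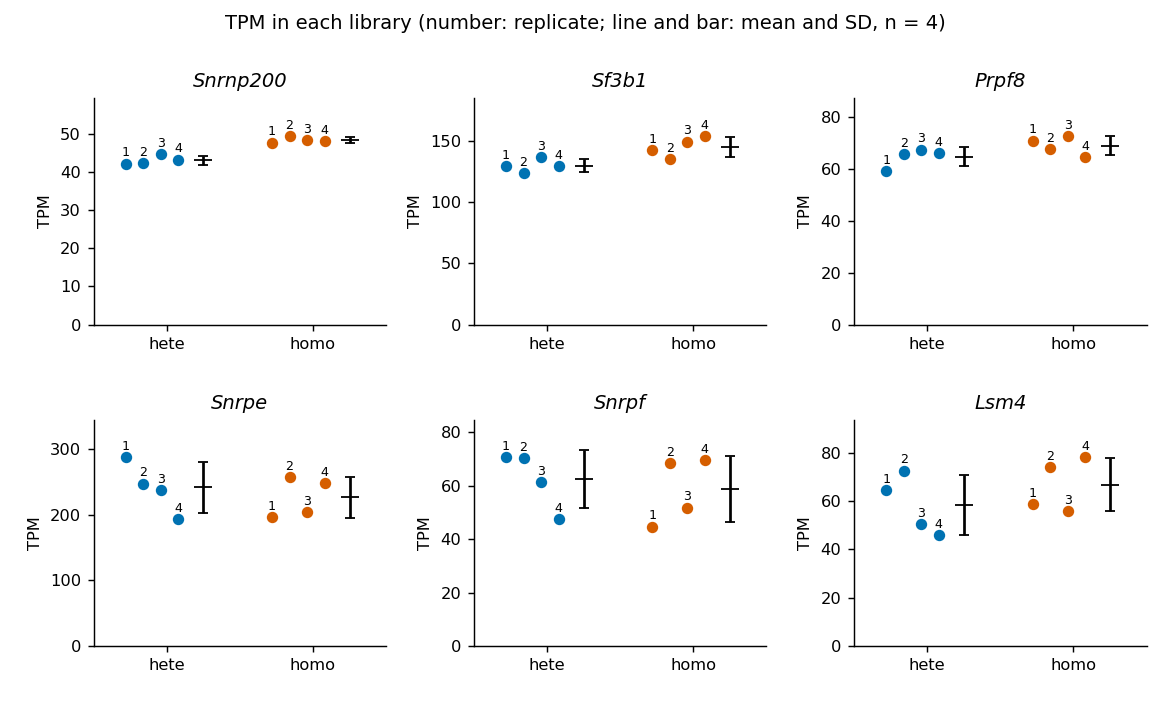
TPM of 6 transcripts in each library (numbers are replicates, lines and bars are the mean and SD of 4 libraries, axes start at 0). Snrnp200 did not overlap between hete and homo, Sf3b1 and Prpf8 overlapped by 1 homo library each, and Snrpe, Snrpf and Lsm4 varied within the groups by more than the group means differed.

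The tri-snRNP proteins join U4/U6 to U5. Snrnp27 (ENSMUSG00000001158, chromosome 6), the highest of the 3, had 81.43, 75.34, 81.35 and 82.38 TPM in hete and 71.84, 80.52, 77.63 and 74.74 in homo. Hete replicate 2 lay among the homo libraries and the other 3 above all of them (log2FC -0.07 ± 0.06 SE, adjusted p = 0.901). Usp39, a protein with an inactive ubiquitin protease fold that is needed to hold the tri-snRNP, stood at 24.5 ± 0.806 and 25.5 ± 2.09 TPM (± SD of 4 libraries, log2FC 0.05 ± 0.08 SE). Sart1, a tri-snRNP bridging protein, stood at 37.0 ± 4.84 and 36.5 ± 2.05 TPM (log2FC -0.01 ± 0.10 SE). Annotated antisense genes share sequence with Sart1 (100% identity over 368 nt) and Sf3b2 (98.6% over 208 nt), at 2.74 and 1.41 TPM. Whether the counting used strand is not given in the sources used here. The median of the 3 log2 fold changes was -0.01, and none was called.

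**Figure D5:**
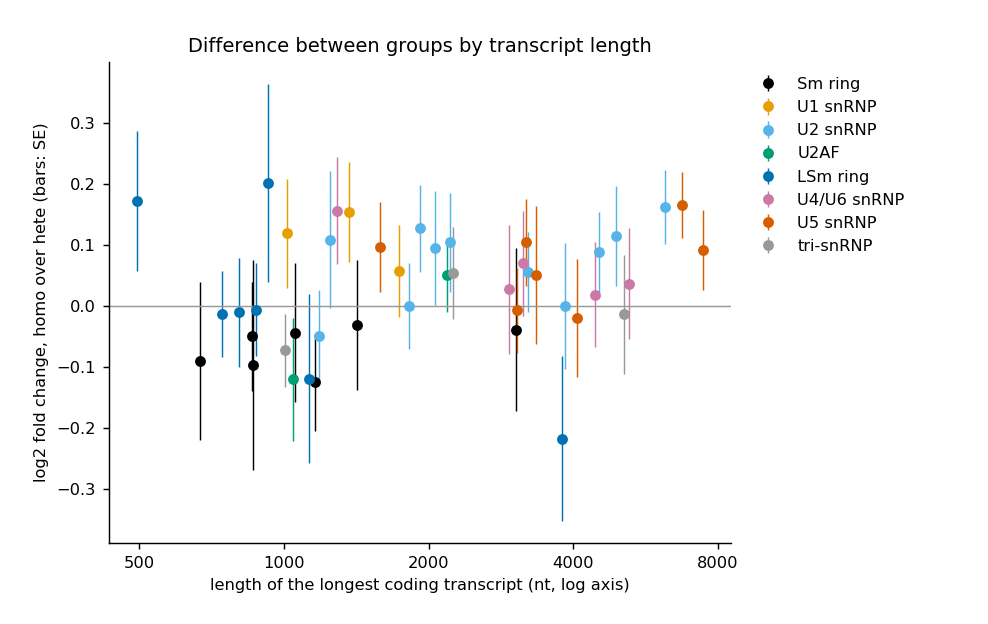
Log2 fold change of homo over hete (bars are the SE) of each of the 45 transcripts against the length of its longest coding transcript in nt on a log axis, coloured by particle. Of 19 transcripts of at most 1500 nt, 6 stood above 0, and of 26 longer ones, 20 did, with 47.6% and 59.5% of all tested genes above 0 in the same length classes.

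The particles also differ in transcript length, and the direction of the small differences ran partly with it. Of the 19 members with a longest coding transcript of at most 1500 nt, 6 had a log2 fold change above 0, and of the 26 longer members 20 did. Among all tested genes the shares were 47.6% and 59.5%. The Sm and LSm transcripts are short, with medians of 1055 and 873 nt, and the U5 and U4/U6 transcripts long, with medians of 3339 and 3144 nt, from 1584 nt for Snrnp40 to 7442 nt for Prpf8 in U5. Snrpd3 and Lsm6 are the long members of their rings, at 3036 and 3792 nt, and both stood below 0. The U1 transcripts went the other way, with a median of 1365 nt and all 3 above 0. Removing a smooth trend over length from each library left all 7 Sm transcripts below 0, turned the LSm ring from 2 to 5 of 7 above 0, and took U4/U6 from 5 to 3 of 5 and U2 from 9 to 8 of 11 above 0. Over all members 26 stood above 0 before and after, and none of the 45 was called. The part of transcript length in these values was not tested further.

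Promoters were examined for what the particles share in sequence. RefSeq promoters on GRCm38.p6, from 250 bases before to 50 after the start, were matched by symbol for 33 of the 45 members. The ETS-type motif CCGGAAG, or CTTCCGG on the other strand, was found in 17 of the 33, or 51.5%, against 18.3% of 11700 tested genes and 9.93% of all 27025 genes with a promoter. It was found in 7 of 9 U2 members and in 1 of 6 LSm members. Of the Sm members it was found in 2 of 5, of U1 in 1 of 3, of U4/U6 in 2 of 4, of U5 in 2 of 3, of the tri-snRNP in 2 of 2, and in the 1 U2AF promoter matched it was not found. Other motifs were counted on either strand too. Shares of members and of tested genes were 66.7% and 66.7% for the GC box GGGCGG and 33.3% and 42.5% for CCAAT. They were 6.06% and 9.01% for TATAAA, and 9.09% and 3.37% for TGACGTCA, which was found in 3 members. The tested genes were not matched to the members in level. A match describes the letters and is no evidence of binding. Both members with an unadjusted p under 0.05 are shown, with Snrpe as the highest of the Sm ring, and capitals mark the ETS-type motif. The Snrnp200 promoter, chr2:127208136-127208435 on the plus strand, holds 1 match that begins at position -33, with the start base counted as 0. The Snrpe promoter, chr1:133610231-133610530 on the minus strand, holds 2 overlapping matches, of CCGGAAG and its reverse complement, from position 3. The Sf3b1 promoter, chr1:55027429-55027728 on the minus strand, holds none.
Snrnp200: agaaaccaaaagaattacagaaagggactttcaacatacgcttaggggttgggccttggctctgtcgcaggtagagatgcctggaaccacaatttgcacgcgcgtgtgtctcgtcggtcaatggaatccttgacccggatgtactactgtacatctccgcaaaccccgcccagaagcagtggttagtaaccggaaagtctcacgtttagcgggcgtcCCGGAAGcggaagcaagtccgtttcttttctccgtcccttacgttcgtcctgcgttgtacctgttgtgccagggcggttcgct
Snrpe: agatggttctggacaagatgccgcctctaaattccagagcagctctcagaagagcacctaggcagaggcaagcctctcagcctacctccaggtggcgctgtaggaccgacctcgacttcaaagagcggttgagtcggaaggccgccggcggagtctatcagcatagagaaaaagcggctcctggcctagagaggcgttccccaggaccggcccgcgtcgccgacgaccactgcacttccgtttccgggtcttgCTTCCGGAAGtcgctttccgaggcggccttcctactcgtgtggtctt
Sf3b1: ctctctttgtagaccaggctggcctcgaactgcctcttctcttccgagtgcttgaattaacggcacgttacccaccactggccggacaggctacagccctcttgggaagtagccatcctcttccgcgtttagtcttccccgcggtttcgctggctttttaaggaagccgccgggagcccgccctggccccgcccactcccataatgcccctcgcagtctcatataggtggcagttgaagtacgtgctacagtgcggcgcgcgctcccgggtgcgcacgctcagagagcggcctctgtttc
Of the 17 members with the motif 10 had a log2 fold change above 0 and 7 below, and of the 16 whose promoter lacked it 7 stood above and 9 below. No test of this was made.

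No gene in the lists of other splicing factors was called. Of 23 genes for snRNP assembly and snRNA handling, all tested, 0 were called, 12 stood above 0 and the median log2 fold change was 0.03. Of 28 other U1, U2 and tri-snRNP proteins 0 were called, 21 stood above 0, and the median was 0.08. In this list 4 had an unadjusted p under 0.05, 3 of them higher, and 3 did not overlap, where 6.05% of all tested genes had such a p, 3.56% as higher, and 3.99% did not overlap. Of 22 factors of the catalytic stage and of disassembly 0 were called, 16 stood above 0 and the median was 0.06. In this list 3 had an unadjusted p under 0.05, all higher, and 4 did not overlap, a larger part of the list than the 3.99% of all tested genes. The difference was not tested. Of 10 minor spliceosome proteins 0 were called and 3 stood above 0, with a median of -0.05 and 0 without overlap. Among the assembly genes Strap, a subunit of the SMN complex, averaged 70.5 ± 1.12 TPM over the hete and 77.1 ± 5.42 over the homo libraries (± SD of 4 libraries, log2FC 0.13 ± 0.06 SE, adjusted p = 0.867) and did not overlap. Larp7, which binds U6 and 7SK RNA, had a log2 fold change of 0.13 (SE 0.07, adjusted p = 0.870). Smndc1, a relative of Smn1 that acts in early spliceosome assembly, had 33.4 ± 1.18 and 39.1 ± 2.94 TPM without overlap (log2FC 0.22 ± 0.07 SE, adjusted p = 0.692). Mfap1a, a tri-snRNP-associated protein on chromosome 2, had 27.7 ± 1.68 and 23.3 ± 1.70 TPM without overlap (log2FC -0.24 ± 0.08 SE, adjusted p = 0.687). Scnm1 and Snrnp25 of the minor spliceosome stood at a log2FC of 0.14 ± 0.08 SE and -0.09 ± 0.07 SE.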

How the data were processed

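The deposited expression table holds TPM made by the authors, 1 column per library, whose values add up to the same total in each. Per the submitters' processing notes, fastp, HISAT2, StringTie, RSEM, DESeq2 and the build GRCm39 were used, with no version or role given. The authors also deposited counts of alternative splicing events per event type, and a gene ontology table not used here.

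The design allowed for read counts, but the files hold TPM, so limma 3.58.1 in R 4.3.3 was fitted to log2(TPM + 1) with the trend and robust options. Group was the only term, all 8 libraries entered, and the 17811 genes whose mean reached 1 TPM were tested, two-sided, with Benjamini-Hochberg adjustment and a threshold of 0.05. These steps were tested on simulated data. A fold change on the log2(TPM + 1) scale understates changes of low genes.

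Each member was placed by its level. Full statistics are given for the 3 members of each particle with the smallest p, for its highest and lowest member by mean TPM, for Dnajc17, and for the 2 smallest p of each related list. The 45 members and all lists were chosen with earlier results of these data known. Genes outside this rule, such as the pseudogene copies, were named after their values were seen.

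Chromosomes and transcript lengths came from GENCODE M21 on GRCm38, and copies from blastn 2.17.0 between its transcripts at an E-value limit of 1e-20. Since the authors used GRCm39, coordinates are those of the annotation and not of the files. The labels give no batch beyond the age shared by all 8 libraries. Alternatives were another pseudocount, other filters, 2 other scalings, a replicate block, eBayes without the robust option and each library left out. Removal of each library's lowess trend over length (span 0.3) and summing of copies into members were chosen after seeing the data. Count tests were left out because TPM are not counts. Figures used matplotlib 3.10.9.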

Additional observations from a re-analysis of the deposited data

Results flagged for a closer look

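In 4 of the 90 groups of 4 libraries examined, which is 4.44%, the highest or lowest value of a member lay far from the other 3, where chance gives about 1 in 20. Snrnp70 had 390.32 TPM in hete replicate 3 against 331.47 to 339.22 in the other hete libraries, and homo replicate 2 held a like value. Ddx23 had 72.96 TPM in the same library against 59.88 to 62.05. Ppih had 23.25 TPM in homo replicate 1 against 28.77 to 29.88, and Snrnp27 had 75.34 TPM in hete replicate 2 against 81.35 to 82.38. Without the library that stood apart, the log2 fold changes of these genes were 0.11, 0.17, 0.24 and -0.10, and none was called.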

How the results depend on the processing

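None of the 45 members was called under any alternative. The number of genes called among all tested was 2, with 1 when low values were not filtered and 1 to 5 with a library left out. No pairing by replicate number was seen: the correlations of same-numbered libraries were -0.08, -0.03, 0.05 and 0.01, and those of unlike numbers ran from -0.08 to 0.06. Such correlations cannot exclude a pairing in how the samples were taken. With the replicate number as a block 1 gene was called, 898 genes had an unadjusted p under 0.05 against 1078 without it, and no member was called. Leaving out a library moved the median log2 fold change of the U4/U6 proteins between -0.0088 and 0.124 and that of the tri-snRNP proteins between -0.101 and 0.0385.

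Several members near 0 changed sign. Sf3b5 stood at -0.0154 after quantile normalization, -0.0048 after rescaling to protein-coding nuclear genes and -0.0252 after removal of the length trend. Lsm2 stood at 0.0092 after removal of the length trend, and Snrpf at 0.0707 with its copy summed in. With a library left out, the log2 fold change ranged from -0.119 to 0.0436 for Snrpd3, -0.220 to 0.0243 for Snrpf, -0.127 to 0.0442 for Snrpg, -0.0520 to 0.0896 for Sf3b5, -0.0664 to 0.0275 for Lsm2, -0.0181 to 0.0836 for Prpf4, -0.0070 to 0.129 for Prpf31, -0.0739 to 0.0358 for Txnl4a, -0.104 to 0.0385 for Sart1, -0.0136 to 0.237 for Dnajc17 and -0.0282 to 0.149 for Snrpn. The cause was not tested. Depth is unknown for TPM, and 4 libraries a group limit the precision to the intervals given.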

Other observations

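Some genes outside the 45 members are their close relatives. Snrpn, the paralog of Snrpb that is high in neurons, had 57.8 ± 9.56 TPM in hete against 60.5 ± 9.37 in homo (± SD of 4 libraries, log2FC 0.07 ± 0.13 SE, limma-trend adjusted p = 0.966). The ratio of Snrpb to Snrpn lay between 2.31 and 3.70 in the 8 libraries and overlapped between the groups. Phf5a, the remaining SF3B subunit, had 40.8 ± 8.79 and 38.2 ± 6.19 TPM (log2FC -0.08 ± 0.17 SE). Of 8 relatives of the Sm, LSm and U2AF proteins outside the members, 0 were called, and 4 stood above and 4 below 0. Lsm11, the U7 snRNP protein of histone mRNA processing, had 3.25 ± 0.213 and 2.75 ± 0.0311 TPM without overlap between the groups (log2FC -0.18 ± 0.11 SE, adjusted p = 0.870). Lsm14a, a protein of cytoplasmic RNA granules, had a log2 fold change of 0.10 (SE 0.06, adjusted p = 0.870).

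Of the genes of the spliceosome lists, Aqr had the smallest p. Aqr (chromosome 2), a helicase of the activated spliceosome that binds the intron, had 21.46, 22.8, 23.21 and 21.26 TPM in hete and 29.39, 27.74, 28.44 and 26.66 in homo. No homo library lay below any hete library (log2FC 0.33 ± 0.07 SE, limma-trend adjusted p = 0.429), and with a library left out the log2 fold change lay between 0.30 and 0.35 and was not called. Gcfc2, which is linked to lariat release, had 7.97 ± 0.471 and 9.70 ± 0.642 TPM without overlap (± SD of 4 libraries, log2FC 0.25 ± 0.09 SE, adjusted p = 0.727). Over the 91 genes of the lists of other splicing factors, 10 did not overlap between the groups, 8 higher and 2 lower in homo, where 3.99% of all tested genes did not overlap. Of these 10, Aqr and Mfap1a lie on chromosome 2 and the other 8 on other chromosomes. Of the 91 genes, 9 lie on chromosome 2, where 6.18% of all tested genes did not overlap. The part of the chromosome in these values was not tested.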
